A study of Rattus norvegicus with 12 samples.

Results

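The genes described here are 10 components of insulin and insulin-like growth factor (IGF) signalling in rat heart muscle: the ligand Igf1, the receptors Insr and Igf1r, the receptor substrates Irs1 and Irs2, the adaptor Grb14, the kinase subunit Pik3r1, the kinase Akt2 and the transcription factors Foxo1 and Foxo3. They were found as the probe sets whose only gene symbol in the platform annotation was the symbol of a member. That gave 21 of the 31042 probe sets that were not controls, and 10 of the 14217 genes that the 20826 probe sets with 1 symbol name. The tests took in 18625 probe sets whose mean over the arrays lay above an intensity of 20.6, the 40th percentile, and 15 of the 21 member probe sets were among them. Igf1 had 3 of 3 probe sets past that filter, Akt2 4 of 4 and Igf1r 2 of 2. Insr had 1 of 2, Foxo1 1 of 3 and Foxo3 1 of 3. Irs2, Grb14 and Pik3r1 had 1 probe set each, all past it, and the only probe set of Irs1 was below it. Probe sets of a gene are numbered by their mean over the arrays, brightest first. They share their RNA and are not replicates.

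All animals were male Sprague-Dawley rats. Diabetic rats had received 65 mg/kg streptozotocin, a toxin taken up by the beta cells of the pancreas, at 8 weeks of age, and non-diabetic rats had received citrate buffer. After 10 more weeks without control of blood sugar they had a sham operation or a ligation of the left anterior descending coronary artery, the standard rat model of myocardial infarction. Tissue came from the left ventricular free wall remote from the infarct, after sham or 1, 7, 14, 28 or 56 days after ligation. There were 12 groups, diabetic and non-diabetic at 6 time points, and each was 1 array of RNA pooled from 3 rats. A condition therefore had no second array, and errors below are standard errors of a model in which the 6 pairs of arrays give the spread, any change of the diabetes difference with time included. Differences are on the scale of log2(intensity + 16), and p-values were adjusted over the 18625 tested probe sets, with a threshold of 0.05. Labelled ages are 18 weeks for the sham and day 1 arrays, 19 for day 7, 20 for day 14 and 22 for day 28. Differences of day 7 or later from sham therefore also compare animals labelled older. Age and time after ligation cannot be told apart in them, and the part of age was not tested. At day 56 the labelled ages are 26 weeks with diabetes and 22 without. The protocol of the non-diabetic array gives 8 weeks after ligation, which makes 26 weeks, so its age label and its protocol conflict. If the label holds, age and diabetes cannot be told apart in that pair. Both sham arrays carry a tissue label that mentions infarction, against a protocol that describes sham surgery.

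Insulin and IGF1 bind related receptor tyrosine kinases, which phosphorylate the insulin receptor substrates. These dock phosphoinositide 3-kinase, whose lipid product brings AKT to the membrane, and AKT in turn drives glucose uptake and protein synthesis and keeps FOXO transcription factors out of the nucleus. In heart muscle the pathway controls glucose uptake through the transporter GLUT4 and the growth of the cells. When insulin is scarce FOXO factors enter the nucleus, and Irs2 and Insr are among the genes they are known to activate in other tissues.

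The promoters of the ligand and of both receptors are shown because the results open with these genes, and because FOXO factors and insulin are known to act through short motifs in promoters. Each runs from 250 bases before to 50 bases after the RefSeq transcription start, in the GRCr8 build, written 5′ to 3′ along the strand of the gene. Capitals mark a match, on either strand, to GTAAACA, a FOXO-type motif, or to CAAAACAA, the insulin response sequence. Igf1 lies at chr7:24172282-24172581 on the plus strand, Insr at chr12:6128754-6129053 on the minus strand and Igf1r at chr1:130959747-130960046 on the plus strand.
Igf1: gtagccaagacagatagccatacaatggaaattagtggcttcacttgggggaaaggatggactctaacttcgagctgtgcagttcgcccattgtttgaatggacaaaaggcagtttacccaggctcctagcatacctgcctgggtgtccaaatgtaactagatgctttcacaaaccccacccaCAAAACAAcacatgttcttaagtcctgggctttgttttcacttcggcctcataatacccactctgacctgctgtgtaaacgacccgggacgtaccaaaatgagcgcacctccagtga
Insr: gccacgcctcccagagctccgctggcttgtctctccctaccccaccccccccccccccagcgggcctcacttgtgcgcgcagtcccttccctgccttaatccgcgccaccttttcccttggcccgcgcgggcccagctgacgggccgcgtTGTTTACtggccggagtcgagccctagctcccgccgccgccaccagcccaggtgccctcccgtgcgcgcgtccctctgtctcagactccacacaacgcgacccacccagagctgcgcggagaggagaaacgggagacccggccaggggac
Igf1r: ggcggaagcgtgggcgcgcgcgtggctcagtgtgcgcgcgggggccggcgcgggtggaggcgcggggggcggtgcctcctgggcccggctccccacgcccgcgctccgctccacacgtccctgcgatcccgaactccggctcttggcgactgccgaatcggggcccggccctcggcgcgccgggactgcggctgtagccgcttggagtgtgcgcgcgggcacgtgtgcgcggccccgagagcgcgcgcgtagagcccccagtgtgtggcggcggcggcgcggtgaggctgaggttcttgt
The Igf1 promoter held CAAAACAA, starting 67 bases before the start site. The Insr promoter held TGTTTAC, which is GTAAACA read on the other strand, starting 100 bases before it, and the Igf1r window held neither. Of 8 members whose promoters were searched, 1 held each motif. Among all 33469 promoters of this length, 3.78% held GTAAACA and 2.23% held CAAAACAA. The G and C content was 48.3% for Igf1, 71.3% for Insr and 78.0% for Igf1r, against a median of 51.7% over all promoters. A match describes letters and is no evidence of binding.

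Median intensity was 28.8 to 34.7 over the arrays. Of 10 markers of cardiomyocytes 9 were on the platform, and their summed intensity was 43453 to 55687. RNA quality set the arrays of days 1 and 7 apart. There, on 4 arrays, the middle probe set of the hexokinase control read 17.8 to 25.1, against 73.7 to 248 on the remaining 8, and the beta-actin 3′ minus 5′ difference was 0.97 to 0.99 on the log2 scale against 0.37 to 0.59. The sample codes of those 4 arrays also have a form of their own, which the labels do not explain. Comparisons of day 1 or day 7 with sham run along that split. In the pairs of sham and days 14, 28 and 56, the diabetic array had the higher hexokinase middle value and the lower beta-actin difference.

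**Figure D1:**
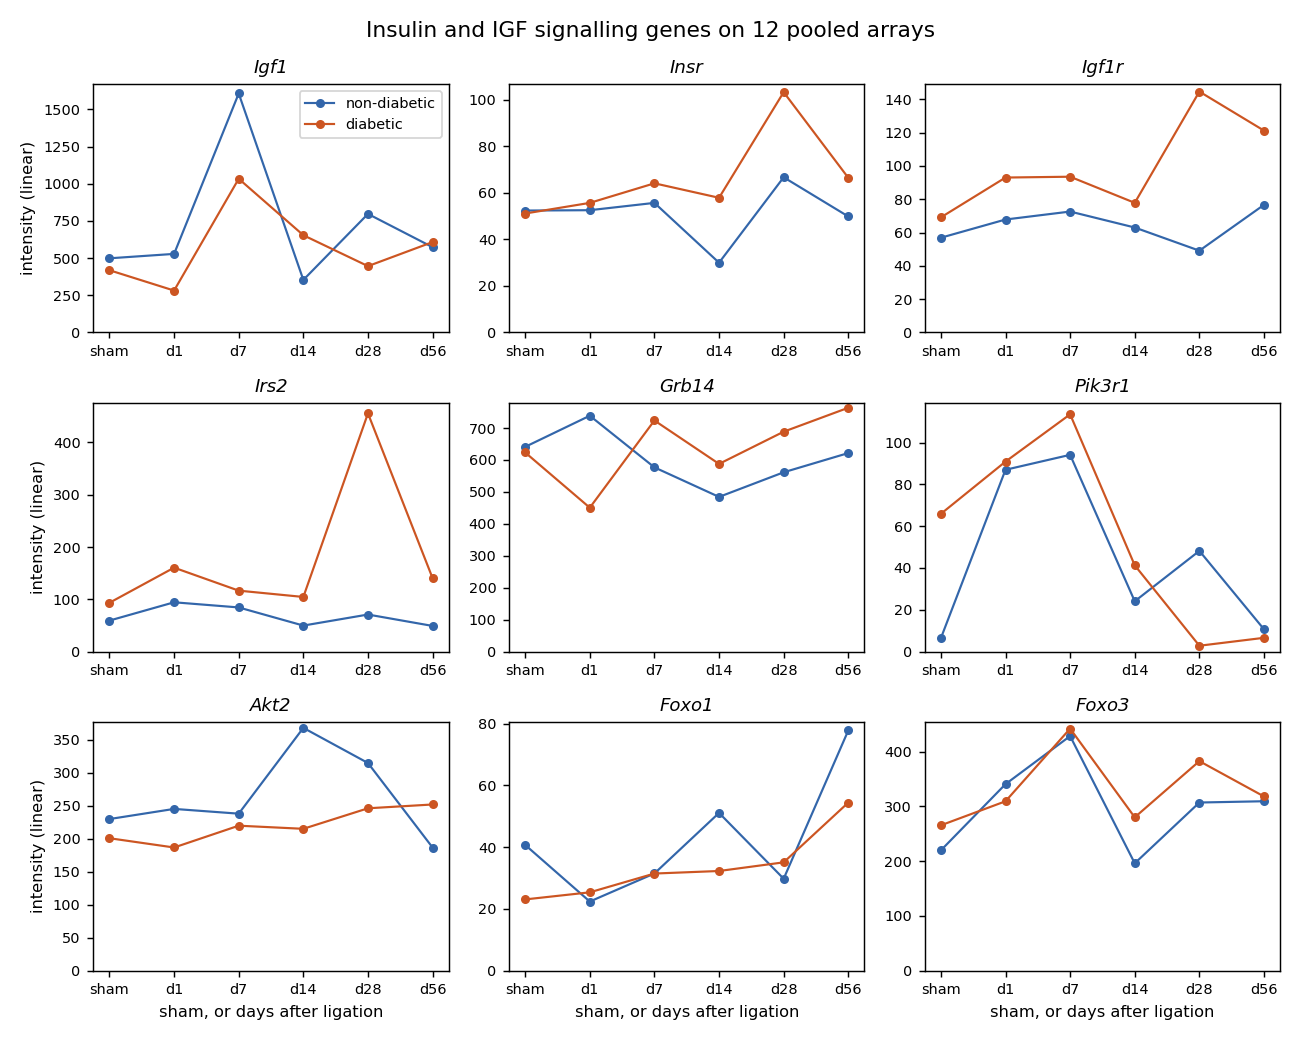
Intensity on a linear axis from 0 for the brightest probe set of each of 9 member genes at sham and 1, 7, 14, 28 and 56 days after ligation; each point is 1 array of RNA from 3 rats, with non-diabetic arrays in blue and diabetic arrays in orange. Igf1 peaks on day 7 in both conditions, and Irs2 reaches 455 on the diabetic day 28 array. Irs1 lay below the filter and is not drawn.

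Igf1, the secreted ligand of the IGF1 receptor, was highest on day 7 in both conditions. Its brightest probe set read 499 in sham and 529, 1607, 354, 797 and 574 on days 1, 7, 14, 28 and 56 in non-diabetic arrays. In diabetic arrays it read 419 in sham and 282, 1034, 654, 446 and 608 on days 1, 7, 14, 28 and 56. The 2 arrays of day 7 were thus the highest of the 12, and the next was the non-diabetic day 28 array. Over both conditions this probe set rose on day 7 by 1.46 ± 0.38 on the log2 scale (SE, 2 arrays against 2), a 2.76-fold change, with an adjusted p of 0.040 from limma. Taken separately, the non-diabetic pool was 1.66 above its sham and the diabetic pool 1.27.

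The 2 other Igf1 probe sets also had their highest values on the day 7 arrays. Probe set 2 read 994 on the non-diabetic and 644 on the diabetic day 7 array, against 256 and 222 in sham, and probe set 3 read 559.7 and 416 against 164 and 119.7. Both day 7 arrays were the highest 2 of 12 on each of the 3 probe sets, a pattern that 8.83% of all tested probe sets showed. Neither passed the test, with 1.68 ± 0.56 and an adjusted p of 0.088 for probe set 2 and 1.67 ± 0.56 and 0.092 for probe set 3. The median day 7 difference of all tested probe sets was 0.15, so these values are to be read against that shift. The call on probe set 1 was lost when any of the 4 arrays involved was left out, with values from 1.25 to 1.68 and adjusted p-values from 0.119 to 0.325.

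Markers of fibroblasts, the matrix-producing cells of the heart, were also highest on day 7. Their summed intensity over 10 genes was 24686 and 25516 on the day 7 arrays and 6807 and 8997 in sham, with 8 of the 10 genes above both sham arrays on both day 7 arrays. On the diabetic day 14 array the sum was 21641, where Igf1 read 654, and on the non-diabetic day 28 array 18959, where Igf1 read 797. They parted on the non-diabetic day 14 array, where the sum was 12049, above sham, while all 3 Igf1 probe sets were below sham, at 354, 102 and 58.7. On the non-diabetic day 1 array they parted the other way. The sum was 6219, below sham, and the Igf1 probe sets read 529, 340 and 199, above sham. Summed macrophage markers were 2929 to 3406 on day 7 and 1842 to 2286 in sham, with 7 of 10 genes above both sham arrays. Their highest sum, 3986, was on the non-diabetic day 28 array. In pooled tissue, more cells of a type and more RNA per cell cannot be told apart, and the part of these markers in the Igf1 result was not tested.

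**Figure D2:**
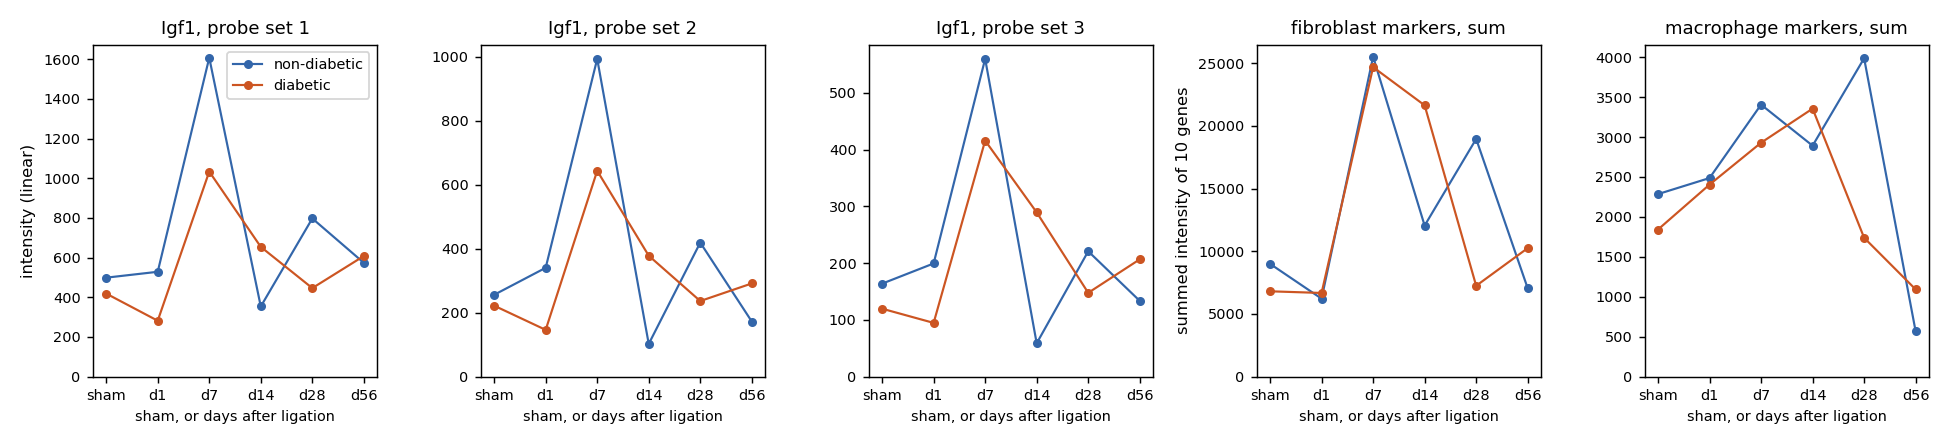
Intensity of the 3 Igf1 probe sets and the summed intensity of 10 fibroblast and 10 macrophage markers, each on a linear axis from 0, by time point; every point is 1 pooled array. All 3 Igf1 probe sets and the fibroblast sum have their highest values on the day 7 arrays, while the macrophage sum is highest on the non-diabetic day 28 array at 3986.

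Diabetes did not give Igf1 a steady difference. On probe set 1 diabetic minus non-diabetic was -0.24 in sham, -0.87 on day 1, -0.63 on day 7, 0.86 on day 14, -0.82 on day 28 and 0.08 on day 56. Diabetic arrays were thus lower at 4 time points and higher at 2, on this and on both other probe sets. The model gave -0.27 ± 0.22 (SE, n = 6 pairs), -0.05 ± 0.32 and 0.05 ± 0.32 for the 3 probe sets, with adjusted p-values of 0.698, 0.972 and 0.971. In the day 14 pair the 3 probe sets differed by 0.86, 1.74 and 2.03, against -0.87, -1.14 and -0.96 on day 1. Without the day 14 pair probe set 3 turned to -0.35. The 3 probe sets followed each other over the 12 arrays, with Pearson correlations of 0.93, 0.93 and 0.98, given as a description.

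Insr, the insulin receptor, was dim and had its highest value on the diabetic day 28 array. Its tested probe set read 52.4 in sham and 52.6, 55.7, 30.0, 66.7 and 49.9 on days 1, 7, 14, 28 and 56 in non-diabetic arrays. The diabetic series was 51.1 in sham and 55.7, 64.1, 57.9, 103 and 66.5 on days 1, 7, 14, 28 and 56. It was higher in the diabetic array in 5 of 6 pairs, sham being the exception, and the 2 conditions overlapped. The difference was 0.29 ± 0.13 on the log2 scale with an adjusted p of 0.476, which did not pass. Probe set 2 was below the filter, at 4.33 to 41.6, and was also highest on the diabetic day 28 array.

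Igf1r, the receptor for IGF1, was higher in the diabetic array of every pair on its brighter probe set. The values were 56.9 in sham and 67.8, 72.6, 63.0, 49.1 and 76.6 on days 1, 7, 14, 28 and 56 without diabetes. With diabetes they were 69.1 in sham and 93.0, 93.5, 77.8, 145 and 121 on days 1, 7, 14, 28 and 56. The lowest diabetic value, 69.1, lay below the highest non-diabetic one, 76.6, so the conditions overlapped. The difference was 0.50 ± 0.16 (SE, n = 6 pairs), 1.42-fold, and did not pass, with an adjusted p of 0.296. Of all tested probe sets 2.42% were higher in diabetic arrays at all 6 time points.

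On probe set 2 Igf1r read 43.2 in sham and 38.4, 32.9, 47.6, 49.3 and 79.7 on days 1, 7, 14, 28 and 56 in non-diabetic arrays. Diabetic arrays gave 51.6 in sham and 66.1, 42.5, 57.0, 85.4 and 66.7 on days 1, 7, 14, 28 and 56. Here 5 of 6 pairs were higher with diabetes and day 56 was lower. The difference was 0.28 ± 0.14, with an adjusted p of 0.506. None of the 14 alternative settings brought either Igf1r probe set or Insr past the threshold, and none turned their direction.

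Irs2, which links both receptors to phosphoinositide 3-kinase, had the largest diabetes difference among the members. Non-diabetic arrays read 59.3 in sham and 94.3, 84.5, 49.8, 70.9 and 49.1 on days 1, 7, 14, 28 and 56. Diabetic arrays read 93.4 in sham and 161, 117, 105, 455 and 140.4 on days 1, 7, 14, 28 and 56. The diabetic array was the higher in all 6 pairs. Across time points the conditions met only at the edge, where the non-diabetic day 1 array, at 94.3, lay above the diabetic sham array, at 93.4.

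The Irs2 difference was 0.54 in sham, 0.68, 0.40, 0.87 and 2.44 on days 1, 7, 14 and 28, and 1.26 on day 56, all on the log2 scale. The model gave 1.03 ± 0.24 (SE, n = 6 pairs), 2.05-fold, with an unadjusted p of 0.0011 in limma. Adjusted over the 18625 probe sets p was 0.136, so the difference did not pass. Over 14 alternative settings it stayed between 0.75 and 1.28, with adjusted p-values from 0.074 to 0.599. Without the day 28 pair it was 0.75 with an adjusted p of 0.074, and without the day 56 pair 0.99 with 0.405. After ligation the mean difference was 1.13 against 0.54 in sham, and the test of that change gave 0.59 ± 0.65 with an adjusted p of 1.00.

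**Figure D3:**
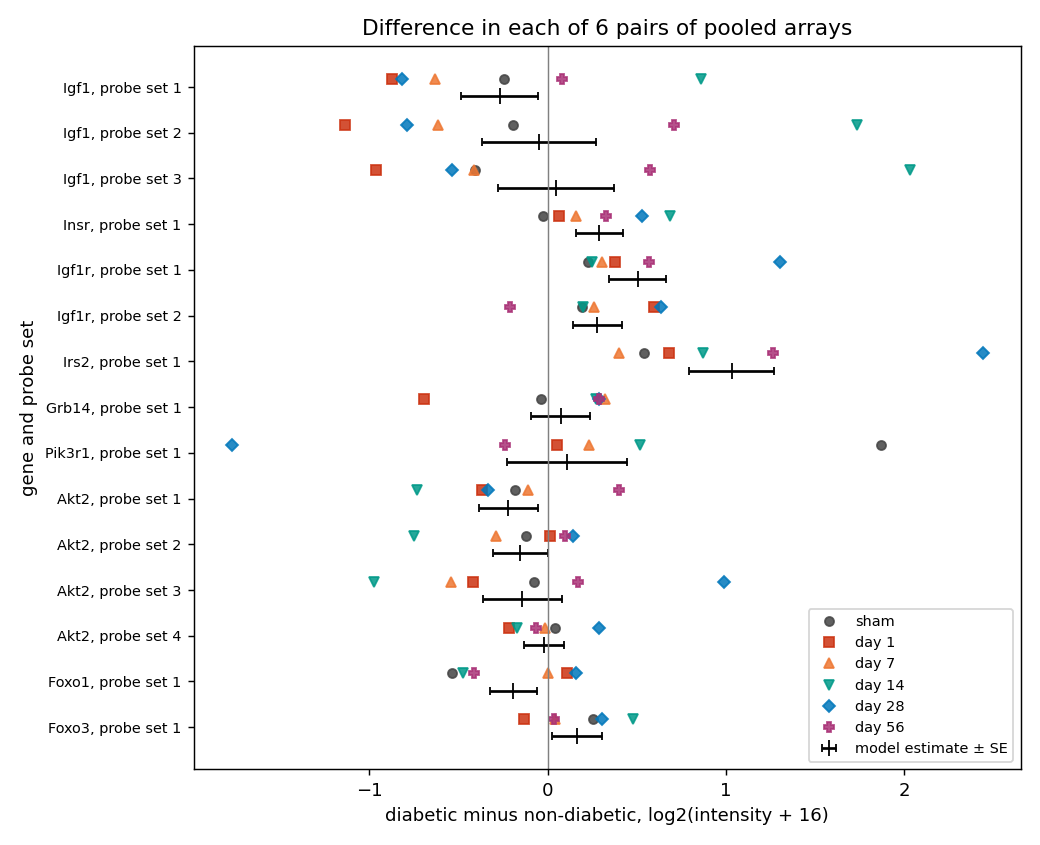
Diabetic minus non-diabetic difference in log2(intensity + 16) for the 15 tested member probe sets; each coloured marker is 1 pair of pooled arrays at a time point, and the black bar is the model estimate ± SE. All 6 pairs lie above 0 for Irs2 and for probe set 1 of Igf1r, and the Irs2 pair of day 28 lies farthest right at 2.44.

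The diabetic day 28 array was the highest of 12 for Irs2, for Insr and for both Igf1r probe sets. These were 4 of 15 tested member probe sets, or 26.7%, against 8.21% of all tested probe sets. With array medians set equal, a setting chosen after seeing the data, 3 of 15 were highest there against 6.85% of all. On that array the median intensity was 31.9, the highest outside days 1 and 7. Its hexokinase middle control, at 177, and its beta-actin difference, at 0.38, lay within the range of the other arrays of sham and days 14, 28 and 56. On the non-diabetic day 28 array these were 73.7 and 0.59, the lowest and the highest of that range. Summed fibroblast markers were 7247 on the diabetic and 18959 on the non-diabetic day 28 array, and macrophage markers 1739 and 3986. The part of these markers and of RNA quality in the result was not tested. Over both conditions Irs2 was 1.16 ± 0.41 above sham on day 28 with an adjusted p of 0.999. Without the non-diabetic day 28 array it was 2.00, where the diabetic array alone stands for the day and is assumed to vary like the others.

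Irs1, the other main substrate, gave no usable signal, with 3.23 to 14.6 and a median of 9.27 over the 12 arrays. Grb14, an adaptor that binds the activated insulin receptor and inhibits its kinase, was bright and differed little between arrays. Its values were 641 in sham and 739, 577, 484, 561 and 622 on days 1, 7, 14, 28 and 56 in non-diabetic arrays. In diabetic arrays they were 623 in sham and 451, 724, 588, 689 and 763 on days 1, 7, 14, 28 and 56. The highest array was 763 and the lowest 451, both diabetic. Diabetic minus non-diabetic was 0.07 ± 0.16 with an adjusted p of 0.911, with 4 of 6 pairs higher in diabetes. All 5 day contrasts lay between -0.24 and 0.12.

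Pik3r1, the p85 alpha regulatory subunit of phosphoinositide 3-kinase, ranged from 2.81 to 113. Non-diabetic arrays read 6.42 in sham and 87.0, 94.1, 24.1, 48.2 and 10.7 on days 1, 7, 14, 28 and 56. Diabetic arrays read 65.9 in sham and 90.9, 113, 41.3, 2.81 and 6.60 on days 1, 7, 14, 28 and 56. All 4 arrays of day 1 and day 7 exceeded the 8 others, among which the diabetic sham array at 65.9 was the highest. The share of all tested probe sets with that pattern was not counted. The difference from sham was 1.29 ± 0.58 on day 1 and 1.48 ± 0.58 on day 7, with adjusted p-values of 0.192 and 0.141. These sizes hang on the sham arrays: without the non-diabetic one they were 0.24 and 0.42, and without the diabetic one 2.35 and 2.53, with adjusted p-values of 0.059 to 0.866.

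The sham arrays themselves differed for Pik3r1, at 6.42 without and 65.9 with diabetes, a log2 difference of 1.87. On day 28 the order was the reverse, at 48.2 and 2.81, a difference of -1.77. The lower values of these pairs, 6.42 and 2.81, were near background. Diabetes as a whole gave 0.11 ± 0.34, with an adjusted p of 0.935. The change of the diabetes difference after ligation was -2.11 ± 0.67 with an adjusted p of 1.00, and it rests on the only sham pair. The arrays of days 1 and 7, where Pik3r1 was high, are those with low hexokinase controls. Within the 8 other arrays its Pearson r with the middle control was -0.51 and its Spearman rho -0.38, with two-sided exact permutation p-values of 0.199 and 0.360, adjusted 0.399 and 0.584 over 6 such relations. Without the 2 arrays farthest from the median r was -0.19. The permutations ignored that the 8 arrays form pairs by time point, so these p-values are descriptions.

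Akt2, the AKT kinase most tied to insulin-stimulated glucose uptake, gave different answers on its 4 probe sets. Probe set 1 read 229.7 in sham and 245, 238, 368, 315 and 187 on days 1, 7, 14, 28 and 56 in non-diabetic arrays. In diabetic arrays it read 201 in sham and 187, 219.7, 215, 246 and 252 on days 1, 7, 14, 28 and 56. Its differences from sham were -0.0046 on day 1 and 0.08 on day 7. Probe set 2 lay between 115.7 and 205, with differences of 0.15 and 0.19. Neither passed.

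Probe set 3 of Akt2 fell early after ligation. It read 135 in sham and 43.4, 44.6, 249.7, 72.2 and 150.4 on days 1, 7, 14, 28 and 56 in non-diabetic arrays. Diabetic arrays gave 127 in sham and 28.4, 25.6, 119, 159 and 171 on days 1, 7, 14, 28 and 56. The 4 arrays of day 1 and day 7 were the lowest 4 of the 12, as in 7.67% of all tested probe sets. The difference was -1.52 ± 0.38 on day 1 and -1.55 ± 0.38 on day 7 (SE, 2 arrays against 2), with adjusted p-values of 0.037 and 0.034. Both calls were lost when any array of the contrast was left out, with adjusted p-values of 0.087 to 0.264 on day 1 and 0.144 to 0.237 on day 7.

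Probe set 4, the dimmest, had the same 4 arrays lowest, at 23.6 to 30.0 against 40.5 to 53.0. Its differences were -0.46 ± 0.19 and -0.52 ± 0.19, with adjusted p-values of 0.162 and 0.123. The probe sets of this gene therefore disagreed, and a change of Akt2 as a gene cannot be stated. The arrays where probe sets 3 and 4 were low are those where the hexokinase middle control was low. Within the 8 other arrays probe set 4 followed that control, with Pearson r 0.75 and Spearman rho 0.83 and exact permutation p-values of 0.034 and 0.015, two-sided. Adjusted over the 6 relations computed, these were 0.204 and 0.092, and without the 2 arrays farthest from the median r was 0.70. For probe set 3 within those 8 arrays r was 0.53 and rho 0.48, with exact permutation p-values of 0.164 and 0.243, adjusted 0.399 and 0.584, and r was -0.07 without the 2 farthest arrays. Probe sets 1 and 2 had r of -0.39 and 0.03 and rho of -0.36 and 0.19, with adjusted exact permutation p-values of 0.510 to 0.974. Igf1 probe set 1 had r -0.12 and rho 0.02, adjusted 0.928 and 0.977. The permutations treated the 8 arrays as exchangeable, though they form pairs by time point. In each pair the control was higher in the diabetic array, so these p-values are descriptions. The part of RNA quality was not tested.

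**Figure D4:**
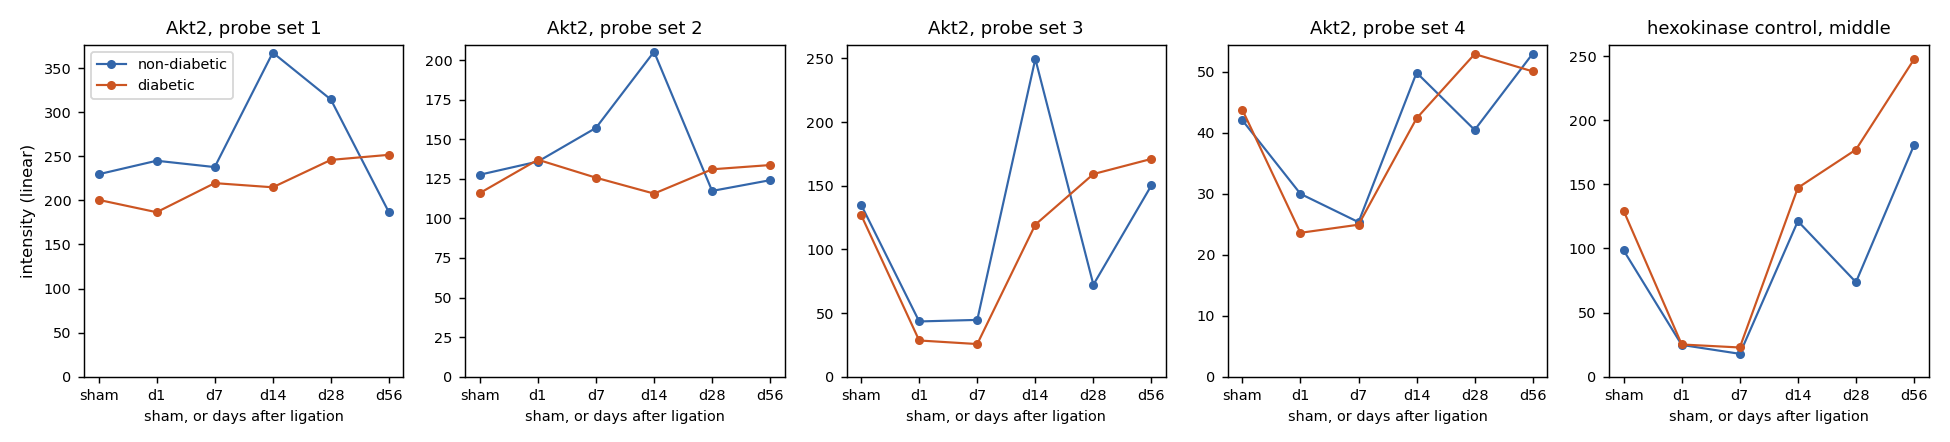
Intensity of the 4 Akt2 probe sets and of the middle probe set of the hexokinase control, each on a linear axis from 0, by time point; every point is 1 pooled array. Probe sets 3 and 4 and the control are lowest on the 4 arrays of day 1 and day 7, where probe set 1 reads 187 to 245 and probe set 2 reads 126 to 157.

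Diabetes made no called difference on any Akt2 probe set. The estimates were -0.22 ± 0.16, -0.15 ± 0.15, -0.14 ± 0.22 and -0.02 ± 0.11 for probe sets 1 to 4, with adjusted p-values from 0.671 to 0.962. On probe set 1 the diabetic array was lower in 5 of 6 pairs, day 56 being the exception.

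Foxo3, a FOXO factor that AKT keeps inactive, was highest on day 7. It read 219.8 in sham and 341, 429, 196, 307 and 309.6 on days 1, 7, 14, 28 and 56 in non-diabetic arrays. Diabetic arrays gave 266 in sham and 309.5, 442, 280.2, 383 and 318 on days 1, 7, 14, 28 and 56. Each condition had its highest value there. The difference from sham was 0.81 ± 0.25, with 0.91 for non-diabetic and 0.70 for diabetic pools, and its adjusted p of 0.068 did not pass. Diabetes gave 0.16 ± 0.14 with an adjusted p of 0.717.

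Foxo1, the FOXO factor best known from insulin action in liver, was dim. It read 40.8 in sham and 22.4, 31.5, 51.1, 29.8 and 77.8 on days 1, 7, 14, 28 and 56 in non-diabetic arrays. The diabetic values were 23.1 in sham and 25.4, 31.5, 32.3, 35.1 and 54.5 on days 1, 7, 14, 28 and 56. Both conditions were highest on day 56, where the difference from sham was 0.79 ± 0.23 with an adjusted p of 0.190. The hexokinase middle control was also highest on day 56 in each condition, at 181 without and 248 with diabetes. The part of RNA quality in this was not tested. Diabetes gave -0.19 ± 0.13 with an adjusted p of 0.637. The 4 FOXO probe sets below the filter read at most 21.3.

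Over all members 0 of 15 tested probe sets passed for diabetes, with 2 at an unadjusted p under 0.05 in limma, Irs2 and Igf1r. Among all tested probe sets 0.376% passed, and 1974 had an unadjusted p under 0.05. The median member difference was 0.05 and that of all probe sets 0.01. On day 1, 1 of 15 passed against 7.47% of all, and it was lower, as were 3.27% of all. On day 7, 2 of 15 passed against 7.65%, 1 higher and 1 lower, beside 4.67% and 2.97% of all. On days 14, 28 and 56 none of the members passed in limma, and neither did any other probe set, while 0, 2 and 1 members had an unadjusted p under 0.05, beside 2172, 675 and 3062 of all. For the change of the diabetes difference after ligation, and for its change on days 1 and 7 against the other time points, 0 members and 0 probe sets passed, in limma, with 1 and 0 members under an unadjusted p of 0.05, beside 125 and 753 of all. All day contrasts share the 2 sham arrays. With so few members, counts of 0 to 2 are near these backgrounds.

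The rest of the pathway was read from 7 lists of 117 genes, of which 106 were on the platform and 96 past the filter, with the brightest probe set standing for a gene. For diabetes 2 were called higher and 2 lower, or 4.17%, against 0.376% of all tested probe sets, 0.15% higher and 0.226% lower. The lists were chosen with results of these data known, so this is a description. Here and below, the lists take the brightest probe set of named genes, while the share of all takes every tested probe set, dimmer ones included. Igfbp5, a secreted protein that binds IGFs and sets their access to the receptor, was lower in the diabetic array of all 6 pairs, as were 3.81% of all tested probe sets. It read 470.1 in sham and 150.2, 347, 416, 505 and 524 on days 1, 7, 14, 28 and 56 in non-diabetic arrays. Diabetic arrays read 117 in sham and 60.9, 129.9, 285, 146 and 269 on days 1, 7, 14, 28 and 56. It fell by 1.24 ± 0.19 on the log2 scale, with an adjusted p of 0.021. On that scale the sham pair differed most, at -1.87, and the day 14 pair least, at -0.52. The call held in 9 of 14 alternative settings, and was lost without the sham, day 7 or day 56 pair, with adjusted p-values of 0.086, 0.074 and 0.092.

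Slc2a4, which encodes GLUT4, was lower in diabetes in all 6 pairs as well. Its non-diabetic values were 1184 in sham and 449.5, 549, 1547, 1029 and 1306 on days 1, 7, 14, 28 and 56. Its diabetic values were 453 in sham and 88.5, 405, 513, 774 and 429 on days 1, 7, 14, 28 and 56. On the log2 scale the difference was smallest on days 7 and 28, at -0.43 and -0.40, and widest on day 1, at -2.16. Its call at an adjusted p of 0.046 held in 6 of 14 settings, and was lost without the sham, day 1, day 14 or day 56 pair, with 0.160, 0.084, 0.192 and 0.253. Both genes called higher, Pdk4, which blocks pyruvate oxidation, and Txnip, which restrains glucose uptake, are in the list of FOXO targets. The Txnip call was lost without the day 56 pair, with an adjusted p of 0.055, and the Pdk4 call without the sham, day 14 or day 56 pair, with 0.065, 0.116 and 0.144.

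By list, the median diabetes difference was -0.05 for ligands and binding proteins, 0.07 for receptors and adaptors and 0.06 for brakes on the receptor and lipid signal. It was 0.03 for phosphoinositide 3-kinase and AKT, 0.05 for the growth arm through mTOR, -0.07 for the metabolic arm and 0.20 for the FOXO family and targets. The first list had 5 of 10 tested genes above 0, with 0 called higher and 1 lower. The metabolic arm had 4 of 11 above 0 with 1 called lower, and the FOXO list 15 of 22 with 2 called higher. The 4 other lists had 0 called, with 7 of 10, 13 of 18, 6 of 10 and 9 of 15 above 0. Of all tested probe sets 52.6% were above 0, 0.15% were called higher and 0.226% lower. Of genes looked up in any case, Akt1, the other main heart AKT, had -0.09 ± 0.12 with an adjusted p of 0.842. Igfbp3, the main carrier of IGF1 in blood, had 0.34 ± 0.18 with 0.529, and Grb10, the relative of Grb14, 0.19 ± 0.19 with 0.757.

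After ligation 4 pathway genes were called higher and 4 lower on day 1, or 8.33%, where 7.47% of all tested probe sets were called, 4.2% higher and 3.27% lower. On day 7, 3 were called higher and 0 lower, or 3.13%, where 7.65% of all were called. The lists were thus near the background on day 1 and below it on day 7. Igf2r, the receptor that clears IGF2, was higher on both days. It read 231 in sham and 466, 653, 465, 309 and 457 on days 1, 7, 14, 28 and 56 in non-diabetic arrays. In diabetic arrays it read 265 in sham and 786, 677, 502, 511 and 634 on days 1, 7, 14, 28 and 56. The sham arrays were the lowest of each condition, and the difference was 1.24 ± 0.26 on day 1 and 1.37 ± 0.26 on day 7, with adjusted p-values of 0.019 and 0.011. Gsk3b, a kinase that AKT inhibits, rose by 1.05 ± 0.23 and 1.13 ± 0.23, with 0.022 and 0.016.

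Socs3, an inhibitor of cytokine and insulin receptor signalling, rose on day 1 to 42.4 and 67.4 from 17.8 and 17.6 in sham, by 1.05 ± 0.20 with an adjusted p of 0.012. Its day 7 difference was 0.01. Cited2, a transcriptional coregulator, rose on day 1 by 1.18 ± 0.26 with 0.023. Lower on day 1 were Slc2a4 at -1.77 ± 0.39, the stress-induced Sesn1 at -1.16, the phosphoinositide 3-kinase subunit Pik3r3 at -0.91 and the adaptor Gab2 at -0.76, with adjusted p-values of 0.024, 0.041, 0.026 and 0.035. Igfbp4, another IGF-binding protein, was called higher on day 7, at 257 and 173 against 78.0 and 87.1 in sham. Its 1.21 ± 0.32 had an adjusted p of 0.042, and it held in 3 of 10 alternative settings. With either sham array left out none of the 8 genes called on day 1 and of the 3 called on day 7 passed in limma, and only Igf2r, Socs3, Slc2a4 and Sesn1 passed on day 1 without the non-diabetic day 1 array. Each of these calls on day 1 or day 7 lies along the RNA quality split, whose part was not tested.

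**Figure D5:**
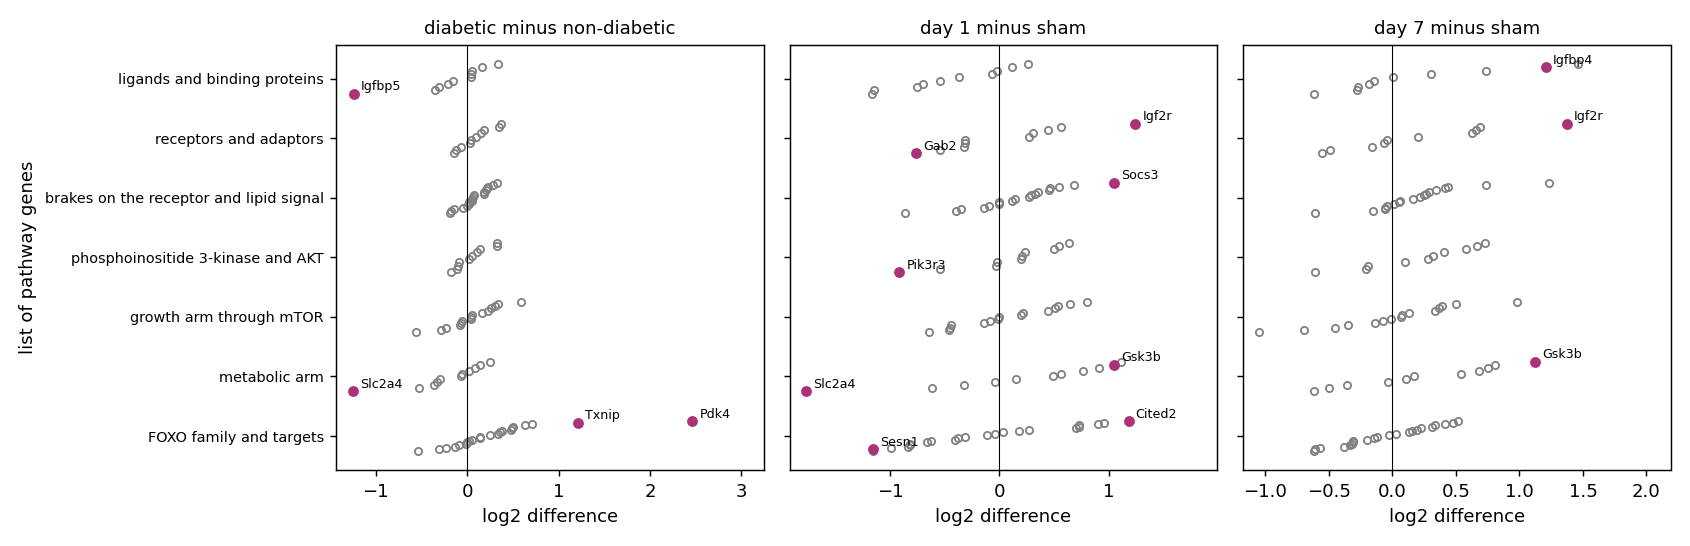
Log2 difference of each tested gene of the 7 pathway lists for diabetic minus non-diabetic, day 1 minus sham and day 7 minus sham; each point is 1 gene at its brightest probe set, and filled, named points passed an adjusted p of 0.05. Most points lie near 0 for diabetes, with Igfbp5 and Slc2a4 to the left and Txnip and Pdk4 to the right.

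The FOXO list was the set with the most genes at their highest value on the diabetic day 28 array, where Irs2, Insr and Igf1r also peaked. Of its 22 tested genes 11, or 50%, were highest there, against 8.21% of all tested probe sets and 18 of 96 over all 7 lists. The count was also 11 with array medians set equal and with quantile normalization. Among them were Pdk4, at 4248 against 382 on the non-diabetic day 28 array, and Ppargc1a, a coactivator of mitochondrial genes, at 390.3 against 72.6. The ubiquitin ligases of muscle breakdown Fbxo32 and Trim63 read 102 against 31.2 and 658 against 392. Foxo4, Sesn1, Gabarapl1, Cdkn1b, Klf15, Bcl2l11 and Ulk1 made up the rest. Some peaks were narrow, with Gabarapl1 at 538, Cdkn1b at 610 and Ulk1 at 228 against 477, 564 and 205 on the next array. Gadd45a, Ccng2, Sesn3 and Cdkn1a were lower than on the non-diabetic day 28 array, by log2 differences of -0.95, -0.57, -0.43 and -0.16. As 1 pool of 3 rats gave the diabetic day 28 array, it has no replicate. RNA quality controls differed within that pair, and their part was not tested.

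The median diabetes difference of the FOXO list was 0.03 in sham, -0.27 on day 1, 0.14 on day 7, 0.35 on day 14, 0.45 on day 28 and 0.43 on day 56. The medians of all tested probe sets in the same pairs were -0.03, -0.09, -0.03, 0.09, -0.07 and 0.18. On day 1 6 of 22 genes were higher with diabetes, and on day 28 and on day 56 18 of 22. The 15 member probe sets had medians of -0.04, -0.13, -0.00066, 0.27, 0.29 and 0.17 in the same order. The diabetes difference of the list on days 1 and 7, against the other time points, had a median change of -0.36. Of its 22 genes 2 were above 0. The median change of all tested probe sets was -0.11, with 36.9% above 0. Above 0 were also only 2 of 10 receptors and adaptors, 2 of 10 genes of phosphoinositide 3-kinase and AKT and 3 of 15 of the growth arm. Ligands and binding proteins had 9 of 10 above 0, brakes 9 of 18 and the metabolic arm 5 of 11. Of the cardiomyocyte markers 0 of 9 were above 0, with a median of -0.17. Days 1 and 7 are also the arrays set apart by RNA quality, whose part was not tested. No gene of the 7 lists passed the test of this change in limma. Pdk4 came closest, at -2.40 ± 0.30 with an adjusted p of 0.075.

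For each member the 2 genes with the highest Pearson correlation over the 12 arrays were found among 10623 genes. They were Ddr2, a collagen receptor of fibroblasts, and Bnc2 for Igf1, with r of 0.90 and 0.89. For Insr they were Zbtb38 and Med13l at 0.95 and 0.92, for Igf1r Srrm1 and the clock gene Per2 at 0.91 and 0.91, and for Irs2 the matrix protease Adamts1 and Safb at 0.90 and 0.90. Cnst and Stk39 were nearest to Grb14 at 0.91 and 0.89, Dnajc18 and Polr1d to Pik3r1 at 0.93 and 0.93, and Vps39 and Trim3 to Akt2 at 0.93 and 0.91. Cdh23 and Camk2g were nearest to Foxo1 at 0.90 and 0.89, and Usp28 and N4bp2 to Foxo3 at 0.94 and 0.93. As the highest of many correlations over few arrays that share time points, these values are descriptions.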

How the data were processed

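RNA of 12 pools was measured on Affymetrix rat arrays. The authors deposited 1 linear intensity per probe set and array, and Affymetrix Expression Console and PLIER are the tools in the submitters' processing notes. How background and scale were handled, and which versions were run, is not given in the sources used. Analyses ran on log2(intensity + 16), which understates differences where intensity is low. Of 31042 probe sets the 18625 with a mean above the 40th percentile were tested. Depth has no counterpart on arrays; the number of arrays limits the precision. No scaling between arrays was added.

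A linear model with time point and diabetes was fitted to all 12 arrays with limma 3.58.1 in R 4.3.3, with 5 residual degrees of freedom and variances following a trend on the mean. Benjamini-Hochberg adjustment ran over the 18625 probe sets of each comparison, at a threshold of 0.05. Interactions of diabetes with ligation and with days 1 and 7 were fitted separately, with 4 residual degrees of freedom. The array of the non-diabetic rats labelled 22 weeks was kept at day 56, as its protocol states.

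The members, lists and tests were chosen with earlier results of these data known. Genes named from the lists are up to 4 per list and comparison with the smallest p among those past the threshold, besides Slc2a4, Pdk4, Akt1, Igfbp3 and Grb10; genes named for peaking on the diabetic day 28 array were chosen after their values were seen, as were the relations with the hexokinase control. Promoters are from RefSeq, GRCr8, which held 8 of the 10 members; Irs2 and Foxo3 were not matched. In a test on simulated data in which 200 of 18625 were changed, a log2 change of 1 was recovered in 78% for diabetes and in 0% for day 7 against sham, and one of 2 in 97% and 87%. Unchanged probe sets called numbered 4 and 0 at a log2 change of 1, and 14 and 11 at 2. For the change of the diabetes difference on days 1 and 7, 0% were recovered at 1 and 61% at 2. The simulated noise was normal and independent between probe sets and arrays. No other time effect was simulated, and the diabetes change was the same at each time point. The shares recovered describe that setting, which is simpler than the real arrays.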

Additional observations from a re-analysis of the deposited data

How the results depend on the processing

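Other offsets (1 and 64), no filter, quantile normalization, equal array medians, no variance trend, arrays left out, and a model without time points were tried for 42 results. Of 497 alternative values 484 kept their direction, and 37 results kept it throughout. The diabetes count stayed at 0 of 15. The day 1 count of 1 became 0 with an offset of 64, where Akt2 probe set 3 had -0.97 and an adjusted p of 0.054. Leaving out any 1 array of the contrast, of sham or of the day, gave 0 for day 1 and 0 for day 7, whose count was 2. For day 28 the count changed only without the non-diabetic day 28 array, where the diabetic array alone stands for the day. Diabetes differences that turned sign were all far from the threshold. Igf1 probe set 2, at -0.05, ranged from -0.40 to 0.17 with a pair left out, turning to 0.17, 0.066 and 0.10 without the day 1, 7 and 28 pairs, and was 0.37 on sham and days 14, 28 and 56 only. Igf1 probe set 3, at 0.05, ranged from -0.35 to 0.25, turning to -0.35 and -0.057 without the day 14 and 56 pairs. Pik3r1, at 0.11, ranged from -0.24 to 0.49, turning without the sham pair, and was -0.0087 with an offset of 1. Akt2 probe set 3, at -0.14, ranged from -0.37 to 0.024, turning without the day 14 pair, and was 0.027 on sham and days 14, 28 and 56 only. Akt2 probe set 4, at -0.02, ranged from -0.085 to 0.016, turning without the day 1 and 14 pairs to 0.016 and 0.0073, and was 0.023 on sham and days 14, 28 and 56 only. Where fewer arrays were used the tests had fewer degrees of freedom; other causes were not tested. The model pairs the 2 arrays of each time point. Without time points the diabetes count was also 0, and the called Igfbp5, Slc2a4, Txnip and Pdk4 had adjusted p-values of 0.534, 0.827, 0.113 and 0.060. Irs1, the dim probe sets of Insr, Foxo1 and Foxo3, and Pik3r1 on some arrays lay near background, which limits what can be read from them.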
